A study of Mus musculus with 2 samples.

Results

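The Kupffer cell identity and scavenger genes described here are 10 genes, Clec4f, Timd4, Cd5l, Vsig4, Marco, Cd163, Nr1h3, Spic, Fabp7 and Mrc1, of 31054 features in the count files. They were compared within the macrophages found among hepatic stellate cell (HSC) preparations, and none of the 10 was used to choose those macrophages. There were 2 single-cell RNA libraries, 1 from p16-LRTD and 1 from p16-Alb-LRTD mice, made with the 10x Genomics 3' kit. All mice were male, of C57BL/6 background, and received CCl4, a hepatotoxin that causes fibrosis, for 4 weeks together with tamoxifen and diphtheria toxin. Both genotypes carry p16-CreERT2, a tamoxifen-dependent Cre driven by the p16 promoter, together with a Rosa26 cassette (R26-CAG-LSL-RSR-tdTomato-2A-DTR) that holds the diphtheria toxin receptor behind a loxP and a rox stop. The p16-Alb-LRTD mice also carry Alb-DreERT2, a hepatocyte-specific Dre, a design meant to give the receptor to hepatocytes with p16 promoter activity, which the toxin then eliminates. Whether any receptor is made without recombination was not measured here. The study's authors speculate that some leaks past the loxP stop. They saw very mild fibrosis away from the central veins only in mice with both Alb-DreERT2 and the cassette. The p16-LRTD mice lack Dre and are the control genotype. The age of the mice and the number pooled into each library are not given in the sources used here. Livers were digested with pronase and collagenase, and cells were taken from a Nycodenz gradient meant for HSCs, so that the macrophages are those that came along.

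Kupffer cells are the resident macrophages of the liver sinusoid. They take up bacteria, dying cells, aged red cells and modified lipoproteins from the blood through lectins, immunoglobulin-domain receptors and scavenger receptors. Their identity is kept by transcription factors that include LXR-alpha and Spi-C, and is supported by signals from neighbouring stellate, endothelial and parenchymal cells. When resident cells are lost in injury, monocytes enter the liver and take on the same genes in steps, with Clec4f early and Timd4 late. Fabp7, a fatty acid binding protein of the brain, is found in Kupffer cells among liver macrophages.

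Macrophages were barcodes with at least 5 UMIs of Csf1r, Adgre1 and Ctss per 10000 UMIs and fewer than 15 of Lrat, Ecm1, Hgf and Reln. Stellate cells had at least 15 of those 4 genes and served as the background, because a UMI of a Kupffer gene in a stellate cell may come from free RNA or from a shared droplet. There were 342 macrophages among 9004 kept barcodes of p16-LRTD, a share of 3.80% (95% Clopper-Pearson interval 3.41 to 4.21). There were 220 among 7416 of p16-Alb-LRTD, a share of 2.97% (2.59 to 3.38). The barcode limits weighed on these numbers. Among all 11149 and 8806 deposited barcodes, 698 and 461 met the macrophage rule, shares of 6.26% and 5.24%. Of the 356 and 241 that were left out, 276 and 169 had under 2000 genes and 192 and 114 had over 5% mitochondrial UMIs, some of them both. With no limits, a setting added after seeing the data, the log2 ratios of p16-Alb-LRTD over p16-LRTD described below were 1.29 for Marco, 0.92 for Cd163, 0.65 for Timd4 and -0.61 for Fabp7. Stellate cells numbered 8092 and 6837. Barcodes with endothelial transcripts (at least 10 UMIs of Ptprb, Stab2, Kdr and Egfl7 per 10000, and outside the other classes) numbered 428 and 281. The macrophages held 7431873 UMIs in p16-LRTD and 5557093 in p16-Alb-LRTD, with a median of 20257 and 25178 per cell, so that p16-Alb-LRTD was the deeper. The libraries shared 95 barcode sequences, of which 0 were macrophages in both.

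The macrophage label was met by the 10 genes. After each cell was thinned to 5000 UMIs, 75.7% of p16-LRTD macrophages (70.7 to 80.2) and 76.7% of p16-Alb-LRTD macrophages (70.5 to 82.1) held a UMI of at least 5 of the 10 genes. In stellate cells those shares were 0.557% and 0.190%. The median macrophage held 7 of the 10 genes in each library. A minority held 0 or 1 of them, 9.5% of macrophages (6.59 to 13.1) in p16-LRTD and 13.2% (9.05 to 18.5) in p16-Alb-LRTD, so that the class is not made of Kupffer cells alone. The lower edge of the class differed between the libraries. The barcodes with a macrophage sum between 5 and 10 were 5 in p16-LRTD and 7 in p16-Alb-LRTD, and the summed level of the 10 genes there, per 1000000 UMIs, was 4530 and 36.8, beside 11041 and 13237 over all macrophages. Just outside the class, between 2.5 and 5, were 6 barcodes in each library, with 695.6 and 678.1 on the same scale.

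With 1 library per genotype no test between genotypes was possible, and no difference below has a replicate check. Levels are UMIs summed over the cells of a class and scaled to 1000000 UMIs of that class (CPM). No 95% interval here carries how far mice or preparations vary. Those of levels and ratios carry the error of counting UMIs alone. They treat each UMI as a separate draw and leave out how unevenly the cells of a class hold a gene, so they are too narrow for differences between cells. A difference is counted as higher or lower where it reached 1.5-fold.

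In the macrophages 2 of the 10 genes, Marco and Cd163, were higher in p16-Alb-LRTD by at least 1.5-fold, and 1, Fabp7, was lower. Over all 9737 genes with at least 5 CPM on average, 5.59% were higher and 4.82% lower by that measure. The median log2 ratio of p16-Alb-LRTD over p16-LRTD was 0.22 over the 10 genes and -0.03 over all genes. By counting error alone, the interval lay above 0 for 6 of the 10 ratios and below 0 for 1, that of Fabp7. It included 0 for 3, those of Vsig4, Nr1h3 and Spic. Against the median of all genes 8 ratios were above and 2, those of Spic and Fabp7, below. The scavenger receptors Marco and Cd163 stood at the top of the range. Their ratios were above those of 99.0% and 97.5% of all genes, while that of Fabp7 was above only 4.54%.

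For the genes at the ends of that range, the bases upstream of the start site are shown, since those genes differed most between the libraries. They are RefSeq sequences on GRCm38.p6, on the strand of the gene. For Fabp7 the last 42 of the 250 bases are left out, since they lie within the GENCODE gene, so 208 bases are printed. Capitals mark a match to AGGAAGT, read here as its reverse complement ACTTCCT, a motif of the ETS factors PU.1 and Spi-C.
Marco, chr1:120505025-120505274, minus strand: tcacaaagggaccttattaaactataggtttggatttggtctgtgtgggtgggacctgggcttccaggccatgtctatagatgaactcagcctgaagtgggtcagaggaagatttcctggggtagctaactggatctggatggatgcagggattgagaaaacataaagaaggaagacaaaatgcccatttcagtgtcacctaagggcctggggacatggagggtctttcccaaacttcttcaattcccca
Cd163, chr6:124304401-124304650, plus strand: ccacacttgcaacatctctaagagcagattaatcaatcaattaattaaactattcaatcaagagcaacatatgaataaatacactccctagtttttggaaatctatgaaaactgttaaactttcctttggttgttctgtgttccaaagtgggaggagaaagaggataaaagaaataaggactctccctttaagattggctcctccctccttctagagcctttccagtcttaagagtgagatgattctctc
Fabp7, chr10:57784673-57784880, plus strand: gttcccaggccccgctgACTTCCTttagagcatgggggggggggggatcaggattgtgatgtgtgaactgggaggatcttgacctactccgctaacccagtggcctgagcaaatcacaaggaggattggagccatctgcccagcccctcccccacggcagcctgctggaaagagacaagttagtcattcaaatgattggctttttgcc
In the 250 bases upstream of the RefSeq start, AGGAAGT stood on either strand in 3 of the 10 genes, in Spic (first base at -48 from the RefSeq start), Fabp7 (-233) and Mrc1 (-211), and in 7.69% of 32851 promoters. For Spic and Nr1h3 all 250 searched bases lay within the GENCODE gene, so the Spic match is inside that gene as annotated. The AP-1 motif TGANTCA stood in 0 of the 10 and in 6.75% of all promoters. The LXR motif, AGGTCA repeated after a gap of 4 bases, stood in 0 of the 10 and in 0.0152% of all. A match is a description of the letters, and its absence says nothing of a factor.

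**Figure D1:**
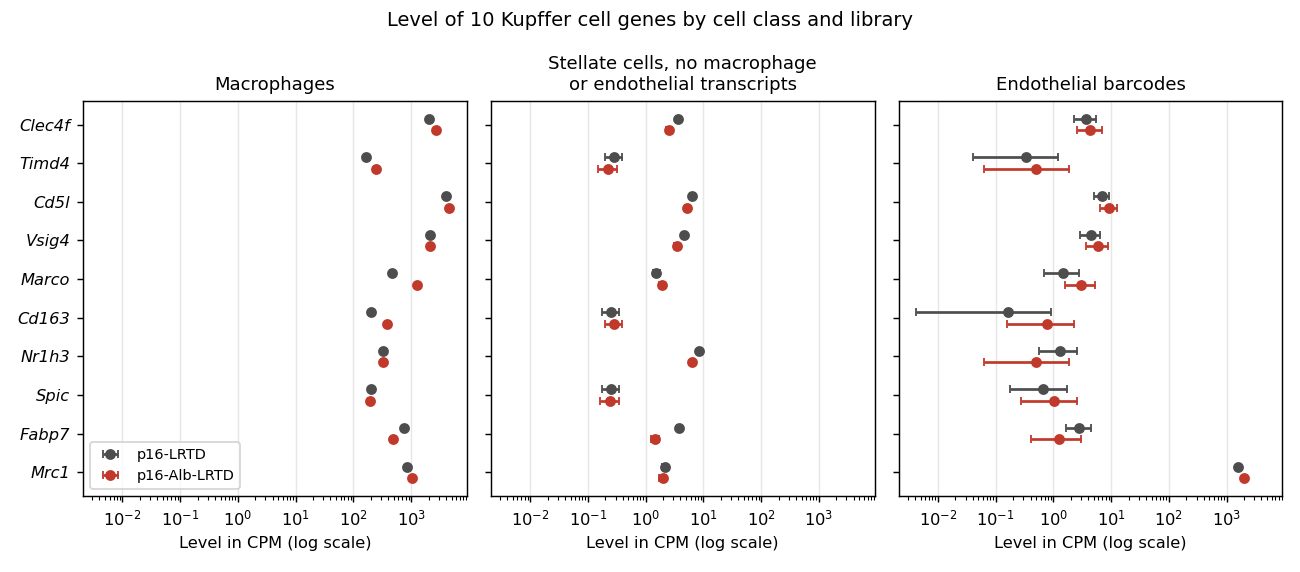
Level of the 10 genes in CPM (x axis, log scale) in macrophages, in stellate cells without macrophage or endothelial transcripts and in endothelial barcodes, with p16-LRTD in grey and p16-Alb-LRTD in red; bars are 95% exact Poisson intervals for counting error. In macrophages Marco stood at 468.4 and 1250 CPM and Fabp7 at 743.3 and 490.2 CPM, and Mrc1 alone was as high in endothelial barcodes.

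Among the identity genes, Clec4f (ENSMUSG00000014542) encodes a C-type lectin that binds galactose-bearing glycans and is a specific marker of mouse Kupffer cells. It lies on the minus strand of chromosome 6, from 83644542 to 83656187. The macrophage level in p16-LRTD was 2020 CPM (1988 to 2052), beside 2702 CPM (2659 to 2746) for p16-Alb-LRTD. The log2 ratio was 0.42 (0.39 to 0.45), higher in p16-Alb-LRTD but under 1.5-fold. In 18 alternative settings it ran from 0.20 to 0.57, a wider range than that interval. The share of thinned macrophages with a Clec4f UMI was 75.7% and 77.2%, with overlapping intervals. Cells with a Clec4f UMI held a median of 14 and 17 UMIs per 5000.

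Timd4 (ENSMUSG00000055546, plus strand of chromosome 11, 46810800 to 46844332) encodes TIM-4, the phosphatidylserine receptor by which long-resident Kupffer cells bind dying cells. In p16-LRTD macrophages it measured 162.1 CPM (153.1 to 171.6), beside 242.4 CPM (229.6 to 255.7) for p16-Alb-LRTD. The log2 ratio was 0.58 (0.47 to 0.69), a 1.49-fold difference just short of the limit. It was past 1.5-fold in 11 of 18 alternative settings and lowest, at 0.30, in cells thinned to equal depth. The share of thinned macrophages with a UMI was 34.7% (29.6 to 40.1) and 38.8% (32.3 to 45.6). The order of the libraries held in each of those measures, but for the shares the intervals overlapped.

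Vsig4 (ENSMUSG00000044206, minus strand of chromosome X, 96247203 to 96293438) encodes CRIg, a complement receptor for opsonised particles in blood. It stood at 2102 CPM (2069 to 2136) and 2083 CPM (2045 to 2121), a log2 ratio of -0.01 (-0.05 to 0.02). Over all macrophages no Vsig4 difference was detectable at this depth, while 18 alternatives gave ratios from -0.16 to 0.16, some of them outside that interval. Cd5l (ENSMUSG00000015854, plus strand of chromosome 3, 87357881 to 87371073) encodes AIM, a secreted protein of tissue macrophages that circulates with IgM. It stood at 3947 CPM (3902 to 3993) and 4550 CPM (4494 to 4607), a log2 ratio of 0.21 (0.18 to 0.23). For Cd5l the interval lay above 0, but the difference was small, and the thinned shares of cells with a UMI were 85.8% and 84.0%.

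Marco showed the greatest difference of the 10 genes. Marco (ENSMUSG00000026390) encodes a class A scavenger receptor for bacteria and particles, and lies on the minus strand of chromosome 1, from 120474538 to 120505024. In p16-LRTD macrophages it measured 468.4 CPM (453.0 to 484.2), beside 1250 CPM (1221 to 1280) for p16-Alb-LRTD. The level was 2.67-fold higher in p16-Alb-LRTD (log2 ratio 1.42, interval 1.36 to 1.48). The share of macrophages with a UMI at equal depth was 35.0% (29.9 to 40.4) and 42.0% (35.4 to 48.8). The shares overlapped, whereas the content per positive cell did not match. Cells with Marco held a median of 4 UMIs in p16-LRTD and 11.5 in p16-Alb-LRTD, and the 90th percentile over all macrophages was 7 and 20 UMIs. The ratio was past 1.5-fold in all 18 alternatives. It was lowest, at 0.85, where only cells with 10000 to 30000 UMIs were compared.

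Cd163 (ENSMUSG00000008845, plus strand of chromosome 6, 124304656 to 124330527) encodes the receptor that clears haemoglobin bound to haptoglobin. In p16-LRTD macrophages it measured 201.6 CPM (191.5 to 212.0), beside 378.3 CPM (362.3 to 394.8) for p16-Alb-LRTD. The level was 1.88-fold higher, a log2 ratio of 0.91 (0.81 to 1.0), and stayed past 1.5-fold in 18 of 18 alternatives, with a lowest value of 0.62 at equal depth. As for Marco, the shares of cells with a UMI were close, at 36.5% (31.3 to 41.9) and 38.4% (31.9 to 45.1).

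Mrc1 (ENSMUSG00000026712, plus strand of chromosome 2, 14229392 to 14332057) encodes the mannose receptor CD206, an endocytic receptor that liver sinusoidal endothelium also carries. In macrophages it stood at 864.3 CPM (843.2 to 885.7) and 1020 CPM (993.6 to 1047), a log2 ratio of 0.24 (0.19 to 0.29). In endothelial barcodes it reached 180% of the macrophage level in p16-LRTD and 199% in p16-Alb-LRTD. Only 32.5% and 30.3% of all Mrc1 UMIs of kept barcodes lay in macrophages, while 47.8% and 42.7% lay in endothelial barcodes. In these preparations Mrc1 was thus a gene of both cell types, and 8 and 6 macrophages also met the endothelial sum.

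Fabp7 went the other way. Fabp7 (ENSMUSG00000019874) lies on the plus strand of chromosome 10, from 57784881 to 57788450. In p16-LRTD macrophages it measured 743.3 CPM (723.8 to 763.1), beside 490.2 CPM (471.9 to 508.9) for p16-Alb-LRTD. The log2 ratio was -0.60 (-0.67 to -0.53), a level 1.52-fold lower in p16-Alb-LRTD. Among thinned macrophages the share with a Fabp7 UMI was 78.9% (74.2 to 83.2) in p16-LRTD and 64.4% (57.7 to 70.7) in p16-Alb-LRTD, and for no other of the 10 genes were the intervals apart. Without thinning they overlapped, at 88.9% (85.1 to 92.0) and 84.5% (79.1 to 89.1), with p16-Alb-LRTD the deeper. They also overlapped in thinned cells with an infiltrating sum of at least 5, a sum explained further on, at 67.2% (58.1 to 75.4) and 59.6% (49.3 to 69.3), but not in those under 5, at 85.6% (80.2 to 89.99) and 68.3% (59.2 to 76.5). Its level was lower in p16-Alb-LRTD in all 18 alternatives, from -0.72 to -0.36, but in 7 of them by less than 1.5-fold, so that the count of genes lower was 0 there.

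The transcription factors differed little. Nr1h3 (ENSMUSG00000002108, minus strand of chromosome 2, 91184061 to 91202834) encodes LXR-alpha, an oxysterol receptor required for Kupffer cell identity. It stood at 329.8 CPM (316.9 to 343.1) and 327.3 CPM (312.5 to 342.7), a log2 ratio of -0.01 (-0.10 to 0.08). Spic (ENSMUSG00000004359, minus strand of chromosome 10, 88674772 to 88685015) encodes Spi-C, the haem-induced ETS factor of iron-recycling macrophages. It stood at 202.6 CPM (192.5 to 213.1) and 193.4 CPM (182.1 to 205.4), a log2 ratio of -0.07 (-0.18 to 0.05). For neither was a difference detectable over all macrophages at this depth, although Spic stood at -0.34 where only cells with 10000 to 30000 UMIs were compared. The shares of cells with a UMI overlapped as well, at 70.3% and 68.9% for Nr1h3 and 46.6% and 45.7% for Spic.

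**Figure D2:**
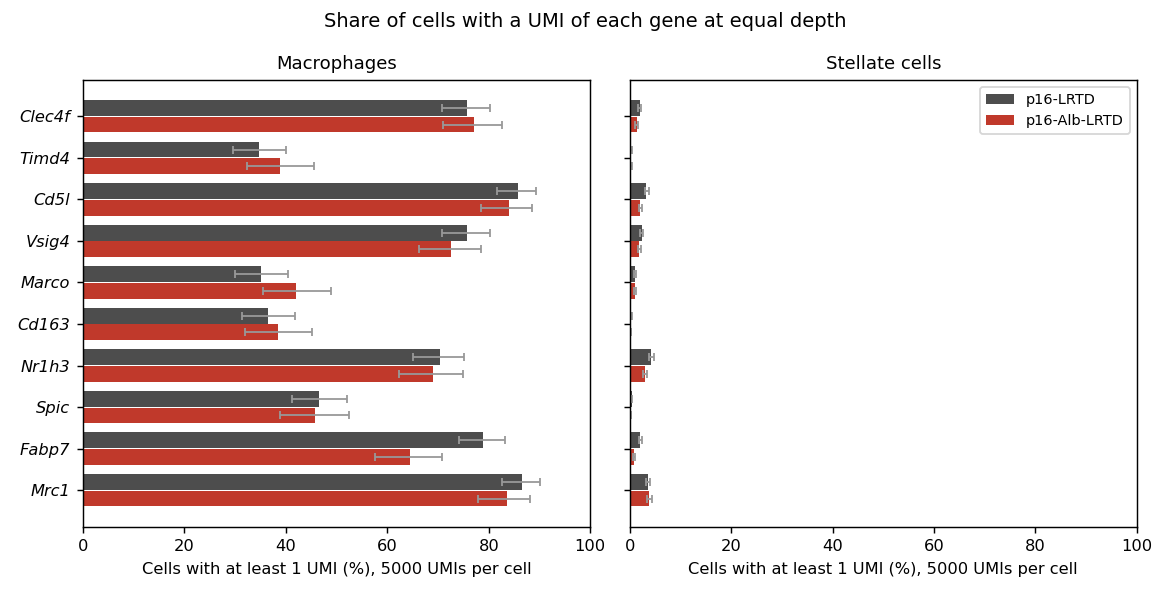
Share of macrophages (left) and stellate cells (right) with at least 1 UMI of each gene after thinning to 5000 UMIs per cell, with 95% Clopper-Pearson intervals; 337 macrophages of p16-LRTD (grey) and 219 of p16-Alb-LRTD (red) were deep enough. Fabp7 is the gene whose intervals do not overlap in macrophages (78.9% and 64.4%), and in stellate cells no share exceeds 4.25%.

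**Figure D3:**
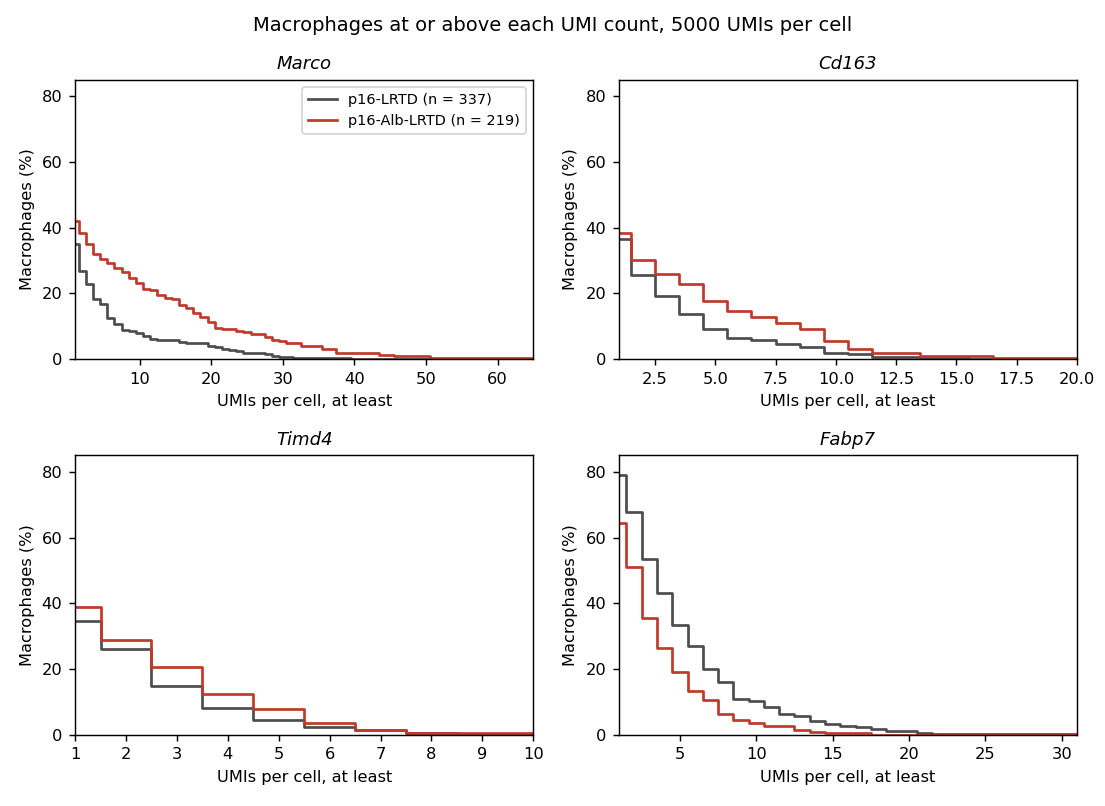
Percentage of macrophages (y axis) with at least a given number of UMIs (x axis) of Marco, Cd163, Timd4 and Fabp7, after thinning to 5000 UMIs per cell, for p16-LRTD (grey) and p16-Alb-LRTD (red). The Marco curves start close, at 35.0% and 42.0%, and part at higher counts, while the Fabp7 curve of p16-Alb-LRTD lies below that of p16-LRTD from 1 UMI on.

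Background from free RNA was small beside these levels. In stellate cells of p16-LRTD, 8 of the 10 genes stood at 0.552% to 0.917% of their macrophage level, and in those of p16-Alb-LRTD at 0.193% to 0.520%. Nr1h3 and Mrc1 lay above that, at 2.98% and 3.03% in p16-LRTD and 2.14% and 3.76% in p16-Alb-LRTD. Among stellate cells, 49 in p16-LRTD and 15 in p16-Alb-LRTD also met the macrophage sum and thus held transcripts of both types. With these and the 183 and 197 stellate barcodes that met the endothelial sum left out, an exclusion added after seeing the data, the 8 genes stood at 0.124% to 0.509% and 0.0739% to 0.298%. Mrc1 then came down to 0.246% and 0.193%, among the others, whereas Nr1h3 remained at 2.55% and 1.97%. The stellate level of Nr1h3 thus lay above the range of the other 9 genes, and its source was not tested. Subtracting the stellate level of the same library left each of the 10 ratios within its interval.

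The 10 genes were not spread evenly over the macrophages, and their pairings were alike in both libraries. Clec4f, Vsig4 and Cd5l went together: across thinned macrophages, Pearson's r of ln(UMIs + 1) was 0.78 to 0.85 for their 3 pairs in p16-LRTD (337 cells) and 0.80 to 0.84 in p16-Alb-LRTD (219 cells). Mrc1 lay nearest to these, with r of 0.67 and 0.68 with Clec4f, 0.62 and 0.64 with Vsig4 and 0.58 and 0.68 with Cd5l, and with Marco it had only 0.16 and 0.19. Timd4, Marco and Cd163 had r of 0.46 to 0.66 and 0.57 to 0.69 among themselves. Between them and the set of Clec4f, Vsig4 and Cd5l r was 0.27 to 0.45 and 0.24 to 0.48. These are descriptions over cells of 1 library, which share its preparation and include cells of more than 1 kind. Fabp7 was correlated least with Marco, at 0.11 and 0.07, and more with Clec4f, at 0.50 and 0.55.

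**Figure D4:**
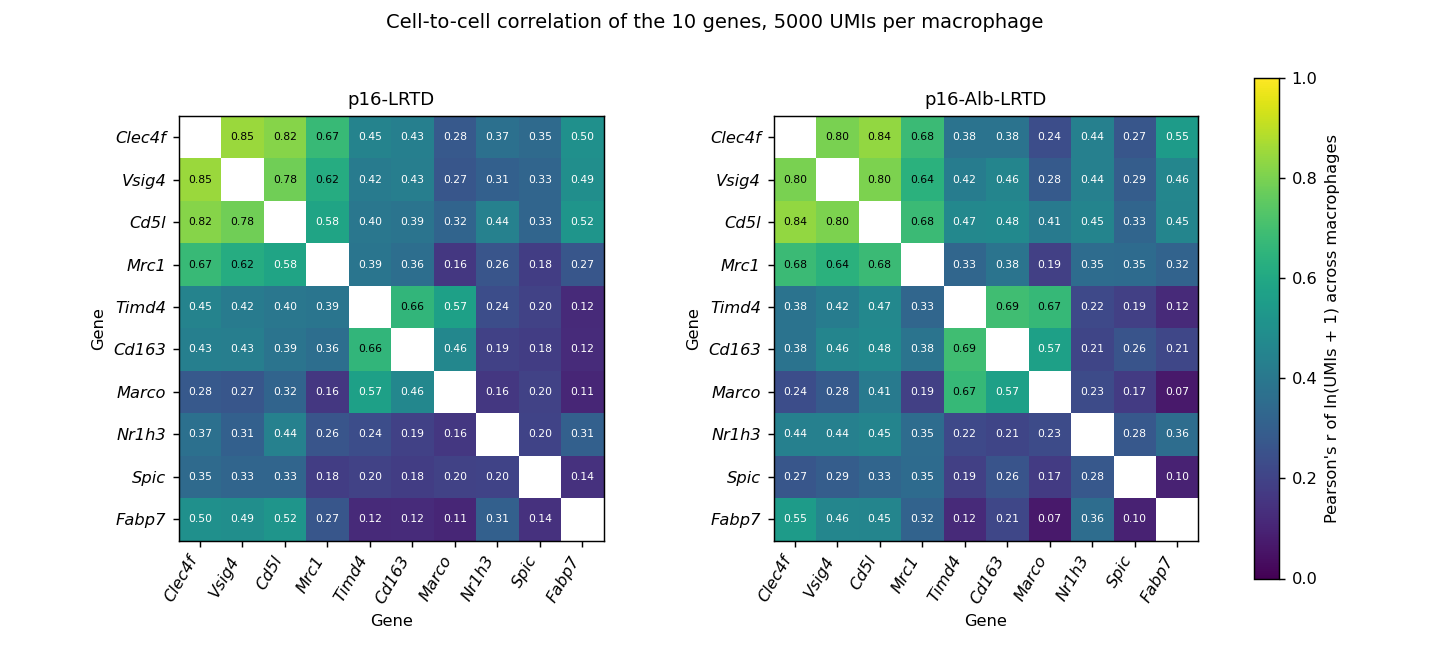
Pearson's r of ln(UMIs + 1) between the 10 genes (both axes) across macrophages thinned to 5000 UMIs, for p16-LRTD (left, 337 cells) and p16-Alb-LRTD (right, 219 cells). The brightest block holds Clec4f, Vsig4 and Cd5l (0.78 to 0.85 and 0.80 to 0.84), Mrc1 lies nearest to it (with Clec4f 0.67 and 0.68), and Timd4, Cd163 and Marco have 0.46 to 0.66 and 0.57 to 0.69 among themselves.

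Detection was compared pair by pair as well. In p16-LRTD, 45.1% of macrophages with a Clec4f UMI had one of Timd4, against 2.44% of those without, and in p16-Alb-LRTD the shares were 49.7% and 2.0%. Timd4 UMIs thus lay almost entirely in cells with a Clec4f UMI. A cell with 0 Timd4 UMIs may still express the gene, since cells with Timd4 held a median of only 2 and 3 UMIs and the share with a UMI was 41.8% and 45.9% without thinning. Among macrophages with a Timd4 UMI, 77.8% had Marco in p16-LRTD and 85.9% in p16-Alb-LRTD, against 12.3% and 14.2% of those without. For Cd163 those shares were 75.2% and 81.2% among cells with Timd4, against 15.9% and 11.2%. Cells with all of Timd4, Marco and Cd163 were 21.4% (17.1 to 26.1) of macrophages in p16-LRTD and 27.9% (22.0 to 34.3) in p16-Alb-LRTD, and cells with none were 49.9% (44.4 to 55.3) and 47.5% (40.7 to 54.3). These shares overlapped between the libraries.

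The levels were also compared within cells with and without a Timd4 UMI, a split made after seeing the data. It used the cells thinned to 5000 UMIs, so its CPM and ratios weigh each cell equally and differ from those of whole cells above. Over all thinned macrophages the log2 ratio was 1.31 for Marco, 0.62 for Cd163, 0.25 for Clec4f, -0.12 for Vsig4 and -0.72 for Fabp7, and these are the values to set beside the split. Marco stood at 1144 CPM in 117 cells with Timd4 of p16-LRTD and at 2687 CPM in 85 such cells of p16-Alb-LRTD, and the log2 ratio was 1.23 (1.09 to 1.37). In cells without Timd4 it stood at 148.2 and 294.0 CPM, a ratio of 0.99 (0.68 to 1.30). The Marco difference was thus present on each side of the split. Cd163 had ratios of 0.44 (0.23 to 0.65) with Timd4 and 0.82 (0.31 to 1.34) without, and Fabp7 of -0.60 (-0.83 to -0.38) and -0.81 (-1.0 to -0.62). Vsig4 stood at -0.19 (-0.30 to -0.09) with Timd4 and -0.12 (-0.22 to -0.01) without, beside -0.12 over all thinned cells. As a mean of per-cell CPM, without thinning, its ratio over all macrophages was -0.16, against -0.01 for summed UMIs. For Clec4f the ratio was 0.02 (-0.08 to 0.12) in cells with Timd4 and 0.40 (0.30 to 0.50) in cells without. In cells with a Timd4 UMI, therefore, no Clec4f difference was detectable at the thinned depth, and whether the ratio differed between the sides was not tested.

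Macrophages other than Kupffer cells could enter the class, so the genes were also compared within cells low and high in a sum of 5 transcripts of infiltrating and injury-associated cells, written here as the infiltrating sum. The sum of Ccr2, Ly6c2, Chil3, Plac8 and Spp1, a set settled after seeing the data, reached 5 per 10000 UMIs in 36.0% (30.9 to 41.3) of p16-LRTD macrophages, 123 cells, and in 45.5% (38.7 to 52.3) of p16-Alb-LRTD macrophages, 100 cells. The sum is not a label for monocytes. In the cells at or above 5 it was mostly Spp1, at 3264 of 3801 CPM in p16-LRTD and 1953 of 2949 CPM in p16-Alb-LRTD, and Spp1 is also a gene of lipid-associated macrophages. Of stellate cells, 64.1% and 67.9% reached it as well. Each of the 10 genes was lower in macrophages at or above 5 than in the rest in each library, for example Clec4f at 1581 against 2263 CPM in p16-LRTD and at 2344 against 3000.1 CPM in p16-Alb-LRTD. In cells under 5, 2 of the 10 genes were higher by 1.5-fold and 1 lower, beside 6.51% and 7.98% of all genes in those cells. There Marco had a log2 ratio between the libraries of 1.39 (1.32 to 1.47), Cd163 of 0.79 (0.67 to 0.90) and Fabp7 of -0.66 (-0.74 to -0.58). Over all macrophages the ratios of these 3 genes were 1.42, 0.91 and -0.60. Since the sum does not mark one cell type, the part of other macrophages in the differences was not tested. In cells at or above 5, 3 of the 10 genes were higher by 1.5-fold and 0 lower, beside 9.27% and 7.88% of all genes in those cells, shares above the ones over all macrophages. Marco had a ratio of 1.55 (1.45 to 1.66), Cd163 of 1.46 (1.27 to 1.66) and Timd4 of 0.82 (0.60 to 1.03). Cd5l and Clec4f lay just under the limit at 0.58 (0.54 to 0.63) and 0.57 (0.51 to 0.63), and Fabp7 stood at -0.36 (-0.48 to -0.25). The difference between the cell groups in these ratios was not tested.

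**Figure D5:**
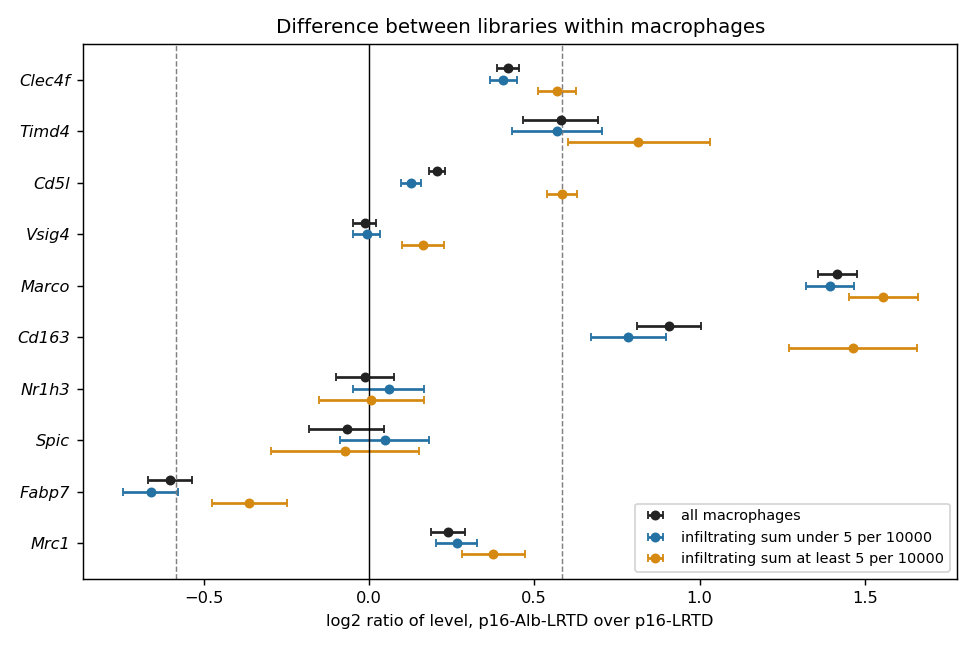
Log2 ratio of level, p16-Alb-LRTD over p16-LRTD (x axis), for each gene in all macrophages (black), in those with an infiltrating sum under 5 (blue) and in those at or above 5 per 10000 UMIs (orange), with 95% intervals for counting error; dashed lines mark 1.5-fold. Marco (1.42, 1.39 and 1.55) and Cd163 lie right of the upper line in each group, and Fabp7 lies left of 0 in each.

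Some marker lists of other cells differed between the libraries and some were nearly level, and their part in the results was not tested. Of the 9 infiltrating monocyte genes measured in macrophages, 5 were higher in p16-Alb-LRTD by 1.5-fold and 2 lower, and the list summed to 1613 and 2572 CPM. In macrophages with an infiltrating sum under 5, a sum that shares Ccr2, Ly6c2, Chil3 and Plac8 with that list, 6 were measured, 2 higher and 4 lower, with sums of 424.3 and 217.4 CPM. Of 7 dendritic cell genes 6 were higher, with sums of 85.3 and 169.0 CPM, and 2 and 11 macrophages met a sum of 1 per 10000 for Flt3, Siglech, Cd209a and Ccr7. Without those cells Marco had a ratio of 1.46 and Fabp7 of -0.56. Endothelial markers summed to 679.0 and 893.1 CPM (1 of 10 higher, 2 lower), and without cells that met the endothelial sum Marco stood at 1.54. Stellate markers summed to 641.3 and 491.8 CPM (0 of 8 higher, 2 lower), and hepatocyte markers to 41.6 and 39.6 CPM (0 of 2 measured higher, 1 lower). Immediate-early and heat-shock genes, which respond to tissue digestion, summed to 4815 and 6105 CPM, with 4 of 12 higher by 1.5-fold and 0 lower. By the same measure 5 of 12 were higher in stellate cells and 10 of 12 in endothelial barcodes, and 0 lower in either. Of all genes, 3.13% were higher and 3.06% lower in stellate cells, and 6.46% higher and 13.6% lower in endothelial barcodes. Of the 10 Kupffer genes, 5 reached 5 CPM in stellate cells, with 0 higher and 3 lower, and 3 in endothelial barcodes, with 0 past 1.5-fold. The 3 lower in stellate cells were Clec4f, Cd5l and Vsig4, at log2 ratios of -0.95, -0.89 and -1.07. Without the stellate barcodes that met the macrophage or endothelial sum they had -0.52, -0.30 and -0.41, each under 1.5-fold. Clec4f and Vsig4 then lay under 5 CPM. B cell markers (1 of 2 measured higher) summed to 12.1 and 24.3 CPM, neutrophil markers (1 of 2 higher) to 69.0 and 70.4 CPM, and T and NK cell markers, none of which reached 5 CPM, to 2.96 and 3.24 CPM. Retnlg, which marks neutrophils, had 0 UMIs in the macrophages of either library, where a count of 0 allows up to 0.404 and 0.540 CPM.

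Lists of other genes of Kupffer cell biology were described in macrophages, beside the 5.59% higher and 4.82% lower of all genes and their median log2 ratio of -0.03. Among 11 further Kupffer genes, 0 were higher by 1.5-fold and 1 lower, counts near those shares. Their median log2 ratio was 0.15, with 7 ratios above 0 and 4 below. The lower gene was Lyve1, a hyaluronan receptor shared with endothelium, at 42.1 and 16.9 CPM. In endothelial barcodes Lyve1 was lower as well, at 1117 and 672.8 CPM, a log2 ratio of -0.73. Of 9 other scavenger receptors 1 was higher, Olr1, at 41.7 and 93.6 CPM, and 0 lower, with a median of -0.06. In macrophages with an infiltrating sum under 5, 0 of the 8 measured were past 1.5-fold. At or above 5, 2 of 9 were higher and 0 lower, beside 9.27% and 7.88% of all genes in those cells. Msr1, which like Marco encodes a class A receptor, had a ratio of 0.15 (0.08 to 0.21), and Cd36, a receptor for oxidised lipoprotein and fatty acids, had -0.35 (-0.39 to -0.31). Over all macrophages the count past 1.5-fold is near the share over all genes, and no test set Marco against the list.

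The lists nearest to the functions of Nr1h3, Spic and Timd4 were described in the same way. Of 10 LXR target genes 1 was higher, Apoc1, with a log2 ratio of 0.63 (0.59 to 0.68), and 0 lower, with a median of 0.14. Of 9 genes of iron recycling 0 were higher and 1 lower, with a median of -0.29, and the lower one was Fth1, the ferritin heavy chain, at -0.98 (-1.0 to -0.96). Of 10 genes of efferocytosis, the uptake of dying cells, 0 were higher and 2 lower, Gas6 at -0.66 and Mfge8 at -1.26, both bridging proteins, with a median of -0.07. Of 8 macrophage transcription factors none reached 1.5-fold in either direction, with a median of 0.08. Of 10 general macrophage genes 1 was higher, Fcgr1, at 0.60 (0.47 to 0.74), and 0 lower, with a median of 0.02.

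The genes that followed the 10 most closely from cell to cell were Slc40a1, Ctsc, Sdc3, C1qc and St3gal5, out of 6033 genes with at least 20 CPM in each library. Slc40a1, which encodes the iron exporter ferroportin, had a Pearson's r with the summed count of the 10 genes of 0.83 across macrophages of p16-LRTD and 0.80 across those of p16-Alb-LRTD. Ctsc, a lysosomal protease, had 0.76 and 0.77. The syndecan Sdc3 had 0.73 and 0.76, the complement gene C1qc 0.63 and 0.82, and St3gal5, a ganglioside synthase, 0.71 and 0.69. These 5 genes differed between the libraries by log2 ratios of -0.10 to 0.24, and none reached 1.5-fold.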

How the data were processed

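The deposited matrices hold unnormalised UMI counts, which the authors made with Cell Ranger 7.0.1 on mm10 per the submitters' processing notes. Whether intronic reads were counted is not given in the sources used here. Barcodes with over 5% mitochondrial UMIs, under 2000 or over 7000 genes, or over 50000 UMIs were left out, as in the study's methods, which removed more than 1 in 2 barcodes that met the macrophage rule. These upper limits and the stellate limit were the treatment of doublets, and no doublet caller was run. Counts were summed per class in Python 3.11.15 with NumPy 2.4.6, SciPy 1.17.1 and pandas 2.3.3. Intervals were exact Poisson for levels, exact conditional for ratios and Clopper-Pearson for shares. On Poisson counts simulated for 9757 genes at the macrophage depth, 95.5% of the ratio intervals held the true value. The intervals assume such counts, so this checks their computation and not the uneven content of real cells. For shares and correlations, cells were thinned to 5000 UMIs, which left out 5 and 1 macrophages. Gene coordinates are from GENCODE vM21 (GRCm38), and no counted gene overlapped the 10. All 10 genes were named, with the 5 most like their summed count by correlation. Other genes were named as examples of their lists after their values were seen. The genes, classes and lists were chosen with earlier results of these data known. Items withheld from the text, and the values that need them, are not reported here.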

Additional observations from a re-analysis of the deposited data

How the results depend on the processing

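No paired analysis was possible because there was only 1 library of either genotype. No called ratio changed direction under the 18 alternative settings run for it. The count of genes lower, 1 with the settings used, was 0 without upper limits on genes and UMIs, with a lower limit of 1000 genes, a macrophage sum of at least 10, a C1q sum of at least 10, centring on the median of all genes, only cells with an infiltrating sum of at least 5 and without cells with a dendritic sum of at least 1, the last 2 added after seeing the data. The Fabp7 ratio lies next to the limit. The count of genes higher, 2, was 3 in 11 of the 18 alternatives and 2 in the other 7, Timd4 being the gene next to the limit. The median log2 ratio of 0.22 was 0.28 without upper limits, 0.47 in cells with an infiltrating sum of at least 5 alone, 0.26 with the C1q sum, 0.12 in cells with 10000 to 30000 UMIs, 0.26 without dendritic sums, 0.12 as a mean of per-cell CPM and 0.18 after thinning to 5000 UMIs. The macrophage share of p16-LRTD was 3.37% with a stellate sum under 5, the shares were 6.26% and 5.24% with no barcode limits, added after seeing the data, and they were 2.43% and 1.62% without cells with an infiltrating sum of at least 5. The share of macrophages with at least 5 of the genes was 70.0% in p16-Alb-LRTD after thinning to 3000 UMIs, 82.2% in p16-LRTD without thinning, 87.4% and 89.2%, in a separate random thinning, without cells with an infiltrating sum of at least 5 and 82.8% in p16-Alb-LRTD with the C1q sum. The infiltrating sum was settled after seeing the data, in place of a wider sum that is not reported here. Except where a setting removes cells or depth by construction, the cause was not tested.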

Other observations

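Other gene groups also differed between the macrophages of the libraries. Of 9 genes of lipid-associated macrophages, the Trem2 type found in injured liver and fat, 8 were lower in p16-Alb-LRTD by 1.5-fold and 0 higher, with a median log2 ratio of -1.21. In stellate cells 3 of the 6 measured were also lower and 0 higher, with a median of -0.41 and sums of 1256 and 875.4 CPM, and in endothelial barcodes 2 of 6 were lower and 2 higher. Of all genes, 4.82% were lower in macrophages, 3.06% in stellate cells and 13.6% in endothelial barcodes. Gpnmb stood at 1046 and 148.8 CPM, a ratio of -2.81 (-2.92 to -2.71), and Fabp5, another fatty acid binding protein, at -1.99 (-2.08 to -1.91). All 9 genes of a list of inflammatory cytokines and chemokines were higher, with a median of 1.24, such as Ccl2 at 74.0 and 354.1 CPM. Of 9 glucocorticoid targets 6 were higher and 0 lower, with Fkbp5 at 101.7 and 491.4 CPM. The list moved the same way in the other classes: 6 of its 9 genes were higher and 0 lower in stellate cells (median 0.71) and in endothelial barcodes (median 0.85), beside 0.82 in macrophages. Of all genes, 3.13% were higher in stellate cells, 6.46% in endothelial barcodes and 5.59% in macrophages. These values rest on 1 library per genotype, and the examples were named after their values were seen.

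Macrophages without a Clec4f UMI, 82 in p16-LRTD and 50 in p16-Alb-LRTD after thinning, held more of the infiltrating monocyte list, at 4427 and 8564 CPM against 457.3 and 533.7 CPM in cells with Clec4f. They also held more of the lipid-associated list, at 18934 and 9276 CPM against 5448 and 3301 CPM.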
